A study of Rattus norvegicus with 5 samples.

Results

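Retinoic acid is made from vitamin A inside cells. Retinol is oxidized to retinaldehyde, mainly by Rdh10, and retinaldehyde is oxidized irreversibly to retinoic acid by the retinaldehyde dehydrogenases Aldh1a1, Aldh1a2 and Aldh1a3, while Dhrs3 reduces retinaldehyde back to retinol. Crabp2 carries retinoic acid to the nucleus, where the receptors Rara, Rarb and Rarg, paired with an Rxr, bind response elements in DNA and switch on target genes such as Rarb itself, the Cyp26 enzymes that degrade retinoic acid, and Tgm2, which encodes the protein cross-linking enzyme transglutaminase 2. Described here are 9 rat genes of this pathway, Tgm2, Aldh1a1, Aldh1a2, Aldh1a3, Rdh10, Dhrs3, Crabp2, Rarb and Rarg, of 15154 genes in all. They were selected on the log2 ratios of 3D over 2D, since Tgm2 and Aldh1a1 had been seen to rise on these same arrays, to ask how far that rise extended to other retinoid genes. For the genes described these ratios are therefore given as a description, without a test. Probes were paired with genes by RefSeq accession, which found 9 probes for 8 of the 9 genes. Rarb was paired with no probe and has no value here.

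FRT cells are a line of thyroid epithelial cells from the Fischer rat. They were grown to day 5 either as 2D confluent monolayers or, embedded in the basement membrane extract Matrigel, as 3D follicles. Per the methods, the medium of FRT cells held donor calf serum and a mixture of hormones. Beyond this, the sources name no agent or genetic change in either condition. Each of 4 replicate arrays set Cy5-labelled RNA of its own 3D culture against Cy3-labelled RNA pooled from 4 2D cultures. On the remaining array, the swapped array, the dyes were exchanged between the 2D pool and pooled 3D RNA. The replicate arrays thus share 1 control sample, the spread between 2D cultures was not measured, and FRT is a single cell line. A transcript that is lost from some cells cannot be told apart from one that falls in every cell.

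All 5 arrays lay on 1 slide, with 58717 spots other than controls on each, 0 of them saturated. The share of probes well above background in a channel was 45% to 50.9%, and where a gene had several probes its brightest was used. Of 13 thyroid and epithelial markers, 9 were well above background in both conditions, among them Pax8, Epcam and Cdh16, which were higher in 3D, whereas the thyroid differentiation genes Tg, Tshr, Slc5a5 and Nkx2-1 were not well above background in either. Intensities were summed after background correction with an offset of 50 and normalization, so genes not above background add to the sums too. The sum of these 13 markers was 41502 to 46592 in 3D and 36134 to 39017 in 2D over the 5 arrays. Markers of fibroblasts summed to 736 to 871 in 3D and 682 to 709 in 2D, with 4 of 8 above background and 1, Pdgfra, past the threshold upwards, those of endothelial cells to 390 to 410 and 392 to 409, with 1 of 6 above background, and those of leukocytes to 537 to 555 and 549 to 568, with 3 of 8 above background and 1, Lyz2, past the threshold downwards (-0.20 on the log2 scale). Among the fibroblast markers the collagen Col3a1 varied most between cultures, with log2 ratios of 1.09, 0.78, -0.07 and -0.10, and 0.17 on the swapped array. Collagens and other fibroblast genes can be expressed by epithelial lines too, and the part of other cells in the results was not tested.

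Promoter sequences of the 3 retinaldehyde dehydrogenases are shown first, because these genes encode enzymes of the same reaction and 1 of them, Aldh1a1, was high where the others were not detected. Each run is the 250 bases before the transcription start in RefSeq's windows of the build GRCr8, at chr1:227537370-227537619 on the plus strand for Aldh1a1, chr8:80758391-80758640 on the plus strand for Aldh1a2 and chr1:129427644-129427893 on the minus strand for Aldh1a3. Capitals mark the octamer ATGCAAAT, the CCAAT box, a TATA motif (TATAAA or TATATA) and the hexamers of which retinoic acid response elements are made, each searched on both strands. A hexamer was taken as AGGTCA or as any of its variants GGGTCA or AGTTCA or GGTTCA.
Aldh1a1: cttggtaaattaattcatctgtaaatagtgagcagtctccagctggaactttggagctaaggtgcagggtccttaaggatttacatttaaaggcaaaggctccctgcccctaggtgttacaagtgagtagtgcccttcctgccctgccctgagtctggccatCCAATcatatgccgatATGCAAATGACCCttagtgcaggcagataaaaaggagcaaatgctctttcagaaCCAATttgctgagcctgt
Aldh1a2: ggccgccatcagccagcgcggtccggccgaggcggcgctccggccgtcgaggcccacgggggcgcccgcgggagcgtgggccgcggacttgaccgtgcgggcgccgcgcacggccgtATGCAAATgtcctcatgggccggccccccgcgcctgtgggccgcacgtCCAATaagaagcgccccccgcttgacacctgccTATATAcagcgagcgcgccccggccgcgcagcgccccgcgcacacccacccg
Aldh1a3: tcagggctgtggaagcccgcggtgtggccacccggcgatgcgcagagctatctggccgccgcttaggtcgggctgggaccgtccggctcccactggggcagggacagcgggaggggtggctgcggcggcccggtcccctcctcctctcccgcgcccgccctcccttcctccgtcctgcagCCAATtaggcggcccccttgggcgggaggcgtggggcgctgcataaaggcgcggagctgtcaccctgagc

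The Aldh1a1 window had the octamer 72 bases before the start and a hexamer on the minus strand 65 bases before it, sharing 1 base with the octamer, with CCAAT boxes at 88 and 18 bases. The Aldh1a2 window had an octamer at 133 bases, a CCAAT box at 85 and TATATA at 52, and no hexamer, and the Aldh1a3 window had a CCAAT box at 70 bases and none of the other motifs. GC content was 46.4% for Aldh1a1, against 77.2% for Aldh1a2 and 73.6% for Aldh1a3. Over all 33469 windows of this length, a hexamer was found in 39.1%, the octamer in 1.56%, a CCAAT box in 34% and a TATA motif in 16.1%. Of the 9 genes, 7 had a window, and Tgm2 and Rdh10 did not.

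The classical response element is a direct repeat of the hexamer with a spacer of 5 bases. Among the 7 genes with a window it was found, within the 300 bases from 250 before to 50 after the start, in Rarb, and among the 3 retinoic acid catabolism genes in Cyp26a1. These elements are shown because both genes are textbook targets of retinoic acid. They lay at chr15:11336410-11336439, starting 24 bases after the start of Rarb, and at chr1:244883724-244883753, starting 92 bases before the start of Cyp26a1, where the repeat is read on the minus strand. Capitals mark both hexamers.
Rarb: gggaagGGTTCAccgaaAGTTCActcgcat
Cyp26a1: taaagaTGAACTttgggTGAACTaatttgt
A repeat of this spacing was found in 0.382% of the 33469 windows of 300 bases. Hexamers repeated with a spacer of 1 or 2 bases were in 0 of the 7 genes' windows, against 0.233% and 0.17% of all windows. A match of letters is not a measured site, and no binding was measured here.

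Tgm2 and Aldh1a1 stood far above the other genes described. On Agilent's processed scale, the background-subtracted and dye-normalized signal of a channel, Tgm2 measured 35691, 42487, 46635 and 46117 in 3D replicates 1 to 4, against 1668, 1616, 1648 and 1644 for the 2D pool on the same arrays. On the swapped array the 3D pool measured 55521 and the 2D pool 2654. The conditions did not overlap on any array, and the lowest 3D signal was 13.5-fold the highest 2D signal. The log2 ratios of Tgm2 after loess normalization were 4.28, 4.61, 4.71 and 4.68 in replicates 1 to 4, or 4.57 ± 0.20 (SD, n = 4), and 4.34 on the swapped array. Replicate 1 was the lowest of the replicates. The fitted log2 fold change over the 5 arrays was 4.52 (standard error 0.07), a 23.0-fold difference and the highest of the 15154 genes.

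Aldh1a1, which oxidizes retinaldehyde and other aldehydes, came next. Its processed signal was 31263, 27169, 22311 and 24325 in 3D replicates 1 to 4, against 1278, 1151, 1281 and 1328 for the 2D pool. On the swapped array it was 33231 in 3D and 1970 in 2D. Here too the conditions stayed apart, the lowest 3D signal being 11.3-fold the highest 2D signal. The log2 ratios were 4.49, 4.39, 3.94 and 4.06, or 4.22 ± 0.26 (SD, n = 4), and 4.02 on the swapped array. Replicates 1 and 2 were the higher ones, so the order of the cultures was not that of Tgm2. The fitted log2 fold change was 4.18 (standard error 0.08), an 18.1-fold difference, and ranked as number 2 of all genes. Both transcripts were also well above background in the 2D pool on all 5 arrays. The paralog Aldh1a7, close in sequence to Aldh1a1, had no symbol in the gene table and was not analysed here, and whether its transcript binds the Aldh1a1 probe was not tested.

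**Figure D1:**
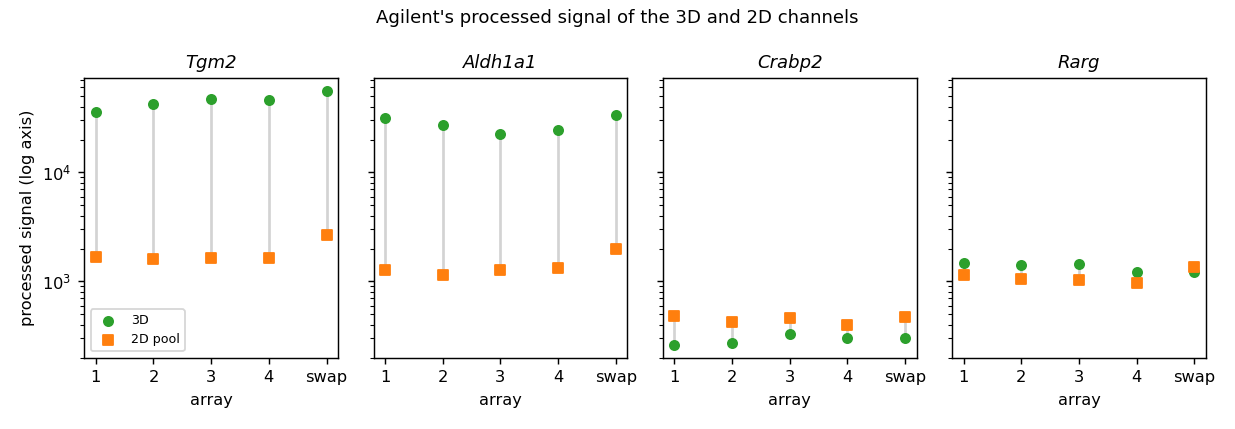
Agilent's processed signal (log axis) of Tgm2, Aldh1a1, Crabp2 and Rarg for the 3D channel (green circles) and the 2D pool (orange squares) on replicate arrays 1 to 4 and the swapped array, each pair joined by a grey line. Tgm2 and Aldh1a1 in 3D lie more than 10-fold above 2D on every array, Crabp2 lies below 2D on every array, and the 2 channels of Rarg change places on the swapped array.

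The other retinaldehyde dehydrogenases were not detected. Aldh1a2, the main source of retinoic acid in the embryo, did not exceed background clearly in 3D or 2D on any array. Its log2 ratios of -0.14, -0.06, -0.03 and -0.11, and 0.01 on the swapped array, therefore compare background with background. Aldh1a3 was likewise not well above background on any array, with ratios of -0.08, -0.05, -0.04 and -0.16, and 0.18 on the swapped array. The difference of Aldh1a1 thus had no counterpart that could be measured in its relatives of the same reaction.

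The enzymes of the step before were near background. Rdh10, which oxidizes retinol to retinaldehyde, was well above background in 3D on 3 of 5 arrays and in 2D on 1 of 5. Its log2 ratios were 0.26, 0.09, 0.07 and -0.19, and 0.17 on the swapped array, so the direction was not shared by the cultures. The 2D detection, on the array of replicate 4, came from 1 spot of 2, with processed signals of 129 and 12.7 for the pair. Dhrs3, which works in the reverse direction, was above background in 3D on 1 of 5 arrays and in 2D on none. Its ratios were 0.15, 0.37, 0.07 and -0.01, and 0.08 on the swapped array, and at this signal no fold is given.

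Crabp2, the carrier that delivers retinoic acid to its receptors, was lower in 3D. Its processed signal ran from 261 to 331 in 3D and from 398 to 478 in 2D, so that the ranges did not overlap. The log2 ratios were -0.60, -0.40, -0.25 and -0.20, or -0.36 ± 0.18 (SD, n = 4), and -0.52 on the swapped array. All 5 arrays pointed down, replicate 1 most and replicate 4 least, and the fitted log2 fold change was -0.40 (standard error 0.06), which makes it 1.32-fold lower in 3D.

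Rarg, the receptor best known from epithelia of the skin, had another sign on the swapped array. The log2 ratios were 0.40, 0.43, 0.44 and 0.31 on the replicate arrays, or 0.40 ± 0.06 (SD, n = 4), but -0.18 on the swapped array. The processed signals ran from 1208 to 1489 in 3D and from 973 to 1361 in 2D and overlapped. The dye effect, which the choice of genes did not use, was 0.29 (limma adjusted p = 0.0082 over all genes), and with a term for it the log2 fold change was 0.11 in place of 0.28. A dye effect was called in 1 of 8 genes described, against 1.9% of all genes, and with a normexp offset of 0 it was called in 0 genes. With a lone swapped array, the dye cannot be told apart from any other feature of that array. A second and dimmer probe of Rarg gave 0.19, 0.22, 0.03 and -0.15, and -0.01 on the swapped array. The replicates of the brighter probe lay close together, and those of the dimmer probe did not share a direction.

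**Figure D2:**
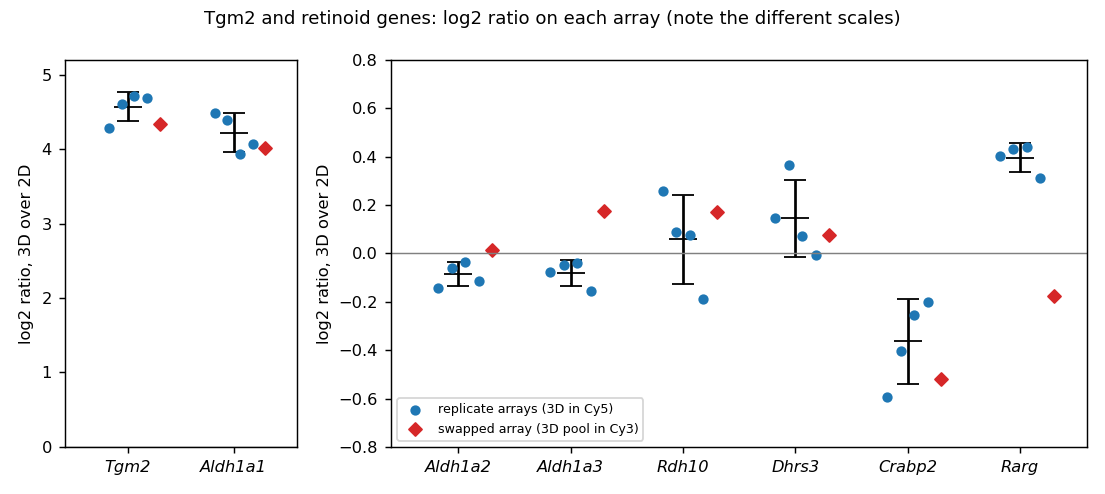
Log2 ratio of 3D over 2D for the 8 genes with a probe, Tgm2 and Aldh1a1 on a scale of their own, with the 4 replicate arrays as blue circles, the swapped array as a red diamond and the mean ± SD (n = 4) in black. Tgm2 and Aldh1a1 lie between 3.94 and 4.71, all other values lie between -0.60 and 0.44, and the diamond of Rarg is on the other side of 0 from its circles.

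Of the 8 genes with a probe, 3 passed the threshold of limma at a false discovery rate of 0.01, Tgm2 and Aldh1a1 upwards and Crabp2 downwards. Among all genes 25.9% passed, 14.4% upwards and 11.5% downwards. The same 3 were the ones with the same direction on all 5 arrays, as 36.3% of all genes were, and 2 of the 8 differed by a log2 value above 1, as 2.17% did. As the genes were chosen with this contrast known, nothing is read from their count. The median log2 fold change of the 8 was 0.11, against 0.00 over all genes, and 6 of the 8 were clearly above background in 3D, 2D or both.

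The genes differed in how much they varied between the 3D cultures, a measure that the choice of genes did not use. The SD over the 4 replicate arrays was 0.26 for Aldh1a1, 0.20 for Tgm2, 0.18 for Crabp2 and Rdh10, 0.16 for Dhrs3, 0.06 for Rarg and 0.05 for Aldh1a2 and Aldh1a3. Set against the 500 genes of most similar intensity, the SD of Aldh1a1 exceeded that of 96.4% of them, Tgm2 of 92.8%, Crabp2 of 89% and Rarg of 23.8%. The spread of Tgm2 and Aldh1a1 was thus wide for genes of their intensity averaged over both channels. It was small beside their difference between 3D and 2D. The match took no account of their dimmer 2D channels. Their log2 levels were 9.94 in 2D and 14.46 in 3D for Tgm2, and 9.66 and 13.84 for Aldh1a1. Each 3D culture had its own array, so the SD also holds variation between arrays.

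The genes most like Tgm2 over the 5 arrays were sought among 7589 genes well above background in both channels on every array, by the root mean square difference of log2 ratios. Nearest to Tgm2 was Aldh1a1, at 0.48, followed by Gpr15lg, which encodes a chemoattractant ligand, at 0.80, and Plac8, a cysteine-rich protein, at 1.14. Nearest to Aldh1a1 were Tgm2 at 0.48, Gpr15lg at 0.58 and Plac8 at 0.79. Gpr15lg had log2 ratios of 3.47, 3.71, 3.88 and 3.97, and 3.58 on the swapped array, and, as in Tgm2, replicate 1 was the lowest of the replicates. Plac8 had ratios from 3.32 to 3.51 on the replicate arrays. These are the 4 genes with the largest rises of all, so the likeness is mainly one of size.

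Beyond these 9, the retinoid pathway was followed in 7 lists that named 70 other genes, of which 55 were measured and 25 exceeded background clearly in 3D, 2D or both. By limma with adjustment over all genes, 8 rose and 2 fell, which is 18.2% of those measured against 25.9% of all genes, and 40% of those above background against 43.4%. The median log2 fold change of the 55 was 0.02. At an unadjusted p under 0.05 the counts were 12 and 4 of the 55, against 3376 and 2736 of all 15154 genes. Of the other 45, 30 were above background in neither condition.

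Among 8 genes for carriers and uptake, 1 fell and 0 rose. It was Fabp5, a fatty acid carrier that can also take retinoic acid to the receptor Ppard, and its difference was the largest in the lists. Fabp5 had log2 ratios of -2.41, -2.23, -1.94 and -1.90, and -2.32 on the swapped array, and was 4.47-fold lower in 3D in the fit (log2 value -2.16, standard error 0.08, limma adjusted p = 9.47e-08). As in Crabp2, replicate 1 had the lowest value. The retinol carrier Rbp4, the uptake receptor Stra6 and the carrier Crabp1 were not well above background in either condition.

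Among 6 ester and carotenoid enzymes only Dgat1, a triglyceride synthase that can also esterify retinol, was above background, and its log2 value rose by 0.61 (limma adjusted p = 0.000131), with replicate 1 low at 0.28 and the other 3 between 0.69 and 0.80. Among 15 further retinol and retinaldehyde oxidoreductases, 1 rose, 0 fell and 7 were above background. The one that rose was Adh5, which oxidizes S-(hydroxymethyl)glutathione and acts on retinol only weakly, with log2 ratios of 0.79, 0.65, 0.75 and 0.74, and 0.84 on the swapped array (limma adjusted p = 1.13e-06). The remaining 14 had log2 fold changes between -0.11 and 0.16.

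The catabolic enzymes, which retinoic acid is known to induce, did not move together. Cyp26b1 rose, with log2 ratios of 1.09, 0.93, 0.42 and 0.35, and 0.40 on the swapped array. Replicates 1 and 2 were the higher ones, as in Aldh1a1, and the SD of 0.37 exceeded that of 99.6% of genes of like intensity. In the fit it was 0.64 higher in 3D (standard error 0.11, limma adjusted p = 0.00125), a size that is uncertain because Cyp26b1 was well above background in 2D on only 1 of 5 arrays. With a normexp offset of 0 it was 1.42, and 2.18 with Agilent's processed signals. Cyp26a1, whose response element is printed above and which is named after its values were seen, had log2 ratios of -0.06, 0.08, -0.10 and 0.03, and 0.03 on the swapped array, and a fitted value of -0.01 (standard error 0.04, limma adjusted p = 0.946). It was well above background in both conditions on all 5 arrays.

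Of 5 other nuclear receptors of the pathway, 2 rose and 0 fell. Rara, the receptor expressed in most tissues, had log2 ratios of 0.84, 1.01, 0.99 and 1.02, and 0.50 on the swapped array. The fitted rise was 1.83-fold (log2 value 0.87, standard error 0.08, limma adjusted p = 1.58e-05), with replicate 1 apart from the other 3. Rxrb, a dimerization partner, rose by 0.26 (standard error 0.05, limma adjusted p = 0.00279), a call that was lost without replicate 1, 3 or 4, each taken alone (adjusted p from 0.0134 to 0.0171), and in 3 other settings.

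Among 6 coregulators, 2 rose and 0 fell. Nrip1, a corepressor that binds receptors that hold ligand, rose by a log2 value of 0.93 (limma adjusted p = 3.88e-06), and its second probe averaged 0.49.

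Of 13 measured genes known to respond to retinoic acid, 1 rose, 1 fell and 5 were above background. Meis1, a homeobox gene, rose by 0.51 (limma adjusted p = 0.000179), but its second probe averaged 0.09. Bhlhe40 is a transcriptional repressor first described as induced by retinoic acid. Its log2 ratios were -0.97, -0.80, -0.75 and -0.63, and -1.11 on the swapped array, and it fell by 0.85 (limma adjusted p = 8.16e-06). Over 14 other settings Bhlhe40 lay between -1.45, with Agilent's processed signals, and -0.59, with median centring, where it lost its call. Hoxa2, Hoxb3, Hoxb4 and Hoxd4, of the Hox genes that retinoic acid is known to induce in the embryo, did not pass, and of these Hoxd4 alone was above background on any array.

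**Figure D3:**
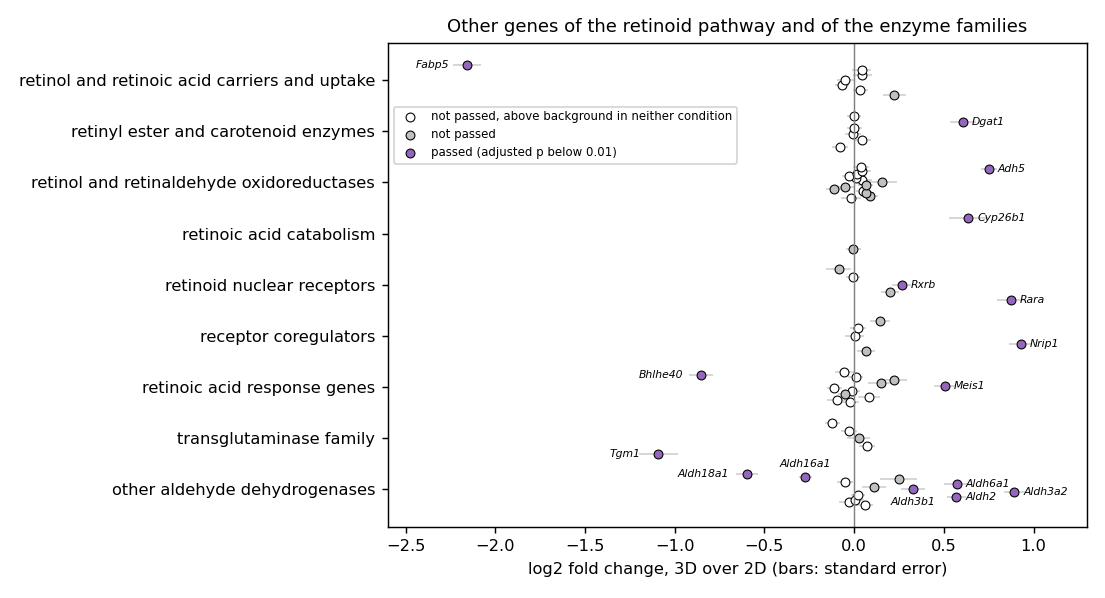
Log2 fold change of 3D over 2D, with its standard error as a grey bar, for the genes of 9 lists that are reported here, filled purple where it passed limma at a false discovery rate of 0.01, grey where it did not and white where it was also above background in neither condition. Most points sit near 0, Fabp5 at -2.16 is the farthest, and Rara and Nrip1 are the farthest to the right among the retinoid lists.

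No rise like that of Tgm2 was found among the measured members of its family, and 3 others had no probe. Of 5 other transglutaminase genes measured, 0 rose and 1 fell, and 2 were above background. Tgm1, which cross-links the envelope of keratinocytes, had log2 ratios of -1.09, -1.58, -0.73 and -0.78, and -1.26 on the swapped array, and fell 2.13-fold in the fit (log2 value -1.09, standard error 0.11, limma adjusted p = 4.55e-05). Tgm1 thus lay on the other side of 0 from Tgm2 on every array, in cultures whose ratios varied by 0.39 (SD, n = 4).

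Among 13 other aldehyde dehydrogenases, 4 rose, 2 fell and 8 were above background. Aldh3a2, which oxidizes fatty aldehydes, rose by 0.89 (limma adjusted p = 2.71e-06), and its second probe averaged 0.43. Aldh6a1, of valine breakdown, rose by 0.57 (limma adjusted p = 0.000136), a size that is uncertain, since it was above background in 2D on 3 of 5 arrays and was 1.21 with a normexp offset of 0 and 1.69 with Agilent's processed signals. Aldh2, the mitochondrial enzyme of acetaldehyde, rose by 0.57 (limma adjusted p = 2.77e-05). Aldh3b1, named after its values were seen, rose by 0.33 (limma adjusted p = 0.00349). Aldh18a1, of proline synthesis, fell by 0.60 (limma adjusted p = 5.20e-05) and Aldh16a1 fell by 0.27 (limma adjusted p = 0.000405). None of these is a main retinaldehyde dehydrogenase. In total 17 of the 73 genes in the 9 lists passed, or 23.3% against 25.9% of all genes. Among genes above background in 3D, 2D or both, the shares were 48.6% in the lists and 43.4% over all. With arrays centred on the median in place of loess, 0 of the 73 passed, as did 7 of all genes in place of 3918.

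The log2 values of Tgm2 and Aldh1a1 were large beside what other ways of processing the arrays moved them by, which was not so for the other genes. Over 14 other settings the log2 fold change of Tgm2 lay between 4.45 and 5.02 and that of Aldh1a1 between 4.10 and 4.69. Crabp2 lay between -0.60 and -0.02, the last with median centring, where it lost its call. Rarg lay between 0.11, with a dye term, and 0.80, with median centring. With Agilent's processed signals, Rdh10 reached 0.87 and Dhrs3 0.68, against 0.08 and 0.13 as reported here. With normexp and an offset of 0, a change of the offset alone, they were 0.35 and 0.54. Neither passed the threshold in any setting.

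**Figure D4:**
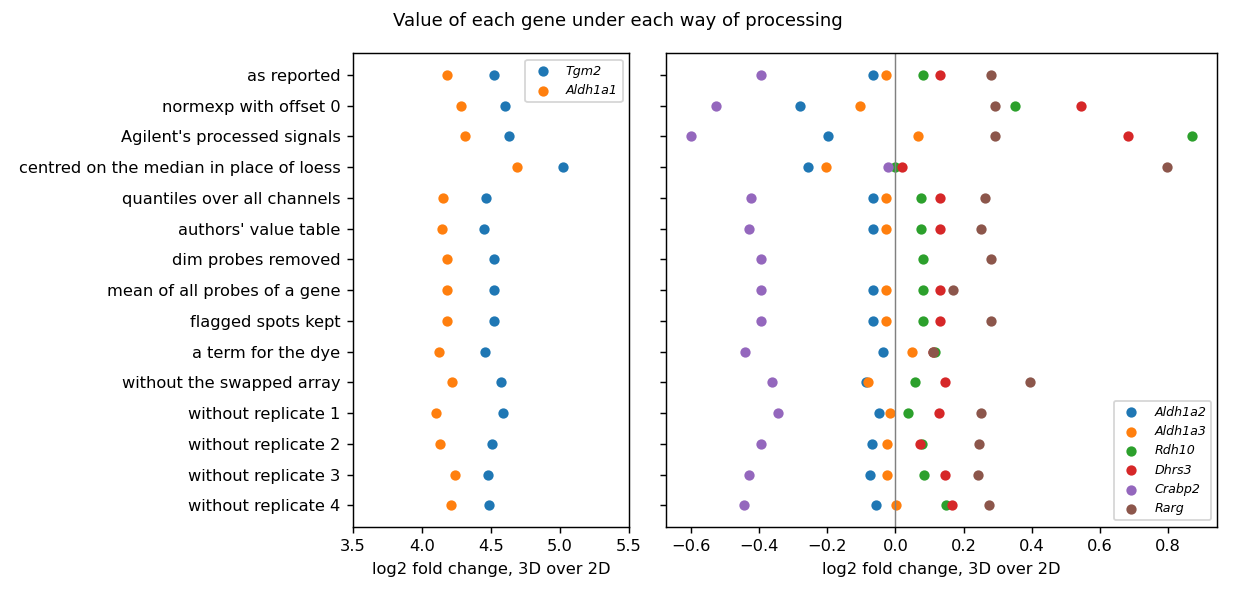
Log2 fold change of 3D over 2D for each of the 8 genes (coloured points) as reported and under 14 other settings (rows), Tgm2 and Aldh1a1 on a scale of their own. Tgm2 and Aldh1a1 stay at 4.10 or above in every row, Rdh10 is highest with Agilent's signals and Rarg with median centring, and Aldh1a2, Aldh1a3 and Dhrs3 have no point where dim probes were removed.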

How the data were processed

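Total RNA of FRT cells on day 5 (RNA integrity numbers 8.1 to 9.6, 100 ng labelled) was read on 5 Agilent 2-colour rat arrays. The deposited intensities used are the median pixel values, not normalized, that Feature Extraction 10.7.3.1 gave for each spot and its local background. Its processed intensities and log10 ratios of Cy5 over Cy3, also deposited, are background-subtracted and dye-normalized. The authors' value table holds log2 ratios that, per the methods, were made with limma by normexp, then loess within and quantiles between arrays. Checked against the scanner files (r from 0.999), each of its 5 columns was 3D over 2D, with medians from -0.00639 to 0.00106.

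Here the median signals were corrected in R 4.3.3 with limma 3.58.1 by normexp with an offset of 50, which compresses ratios of dim genes. They were then normalized by loess with controls at weight 0. Average intensities, but not ratios, were also brought to common quantiles across the arrays. Outlier spots marked by the scanner (1.12% to 1.6% per array) were left out, spots of a probe were averaged and the brightest probe stood for its gene. Of 30367 probes, 17998 (59.3%) were paired by accession with a symbol in a RefSeq table of GRCr8, for 15154 genes, while the arrays were designed on rn4, so no gene coordinates are given beyond RefSeq's own promoter windows. "Well above background" is the scanner's mark on any of the 5 arrays.

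Ratios were tested against 0 over the 5 arrays with the swapped array's sign turned (4 residual degrees of freedom, 5.12 from the prior), with Benjamini-Hochberg adjustment over all genes at an FDR of 0.01. A second model added the dye. The swapped array holds pools of the same cultures and is no independent sample. The number of arrays limits the precision. The fit was tested on simulated data.

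The 9 genes and the pathway and marker lists were chosen, and the lists written from general knowledge, with earlier results of these data known. Named from each pathway list were the 3 largest rises and 3 largest falls among genes that passed, and for Tgm2 and Aldh1a1 the 3 nearest genes. Some genes of these lists are counted but not reported here. Alternatives were other background corrections and normalizations, the authors' table, removal of dim probes, the mean of a gene's probes, scanner-marked spots kept, a dye term and each array left out. The spread between cultures was recomputed under 4 of these, chosen after seeing the data.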

Additional observations from a re-analysis of the deposited data

Results flagged for a closer look

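Rara was the 1 gene among those named whose 4 replicate arrays held a value apart from the rest. Replicate 1 had a log2 ratio of 0.84, and the other 3 had 0.99 to 1.02. The gap is 0.859 of the whole range, above Dixon's 95% critical value for 4 samples. Chance marks about 1 in 20 groups, and 27 genes were examined. The rise of Rara passed the test without replicate 1 too.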

How the results depend on the processing

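The signs of Tgm2, Aldh1a1, Crabp2 and Rarg, which the choice of genes had used, were kept in all 14 other settings. Genes that passed numbered 3918 as reported, 2222 with a normexp offset of 0 and 7 with median centring, where 2 of the 8 genes with a probe passed against 3 and 0 pathway genes against 17. Without 1 replicate, 3006 to 3308 genes, 3 of the 8 and 15 to 17 pathway genes passed, and without the swapped array 5050, 4 (Rarg at 0.40 in addition) and 22. The share of passed genes that were higher was 55.6% as reported, 100% with median centring and 49.2% in the authors' table. Genes with a dye effect numbered 288 as reported, 0 with an offset of 0, 164 with quantiles over all channels and 12713 with median centring. The median SD between cultures over the 8 genes was 0.168, and 0.269 with an offset of 0 and 0.290 with Agilent's processed signals. Signs turned for Aldh1a3 (0.067 with Agilent's signals, 0.048 with a dye term, -0.026 to 0.0027 without 1 replicate), Cyp26a1 (0.095 with Agilent's signals, 0.037 with median centring, 0.0067 with a dye term, -0.028 to 0.018 without 1 replicate), Rdh10 (-0.00048) and Aldh16a1 (0.24), these last with median centring. The cause was not tested. With dim probes removed, Aldh1a2, Aldh1a3 and Dhrs3 gave no value. No paired analysis was possible because the 2D cultures were hybridized as 1 pool and only the 3D cultures carry replicate numbers.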

Other observations

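In many genes the ratios of replicates 1 and 2 lay both above or both below those of replicates 3 and 4. This held for 5 of the 8 genes described, for 41.3% of all genes and for 46.9% of those above background. Replicates numbered at random would also give such splits in part of the genes, and that share was not subtracted. Aldh1a1 (4.49 and 4.39 against 3.94 and 4.06 on the log2 scale), Cyp26b1 (1.09 and 0.93 against 0.42 and 0.35) and the fibroblast marker Col3a1 (1.09 and 0.78 against -0.07 and -0.10) were higher in replicates 1 and 2. Tgm2 (4.28 and 4.61 against 4.71 and 4.68), Crabp2 (-0.60 and -0.40 against -0.25 and -0.20), Fabp5 (-2.41 and -2.23 against -1.94 and -1.90), Tgm1 (-1.09 and -1.58 against -0.73 and -0.78) and Aldh2 (0.40 and 0.45 against 0.67 and 0.62) were lower in them. The pattern was noticed in the values, these genes are examples, the replicate numbers carry no known meaning, and it was not tested.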
